A study of Homo sapiens with 12 samples.

Results

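The genes described here encode the subunits of the transcription factor NF-kB and its feedback inhibitors, 9 of the 23619 genes in the deposited expression table. They were chosen by name: the subunit genes NFKB1, NFKB2, RELA, RELB and REL, the IkB genes NFKBIA, NFKBIB and NFKBIE, and TNFAIP3, which encodes the ubiquitin-editing enzyme A20. Transcript levels were measured by sequencing of poly(A) RNA from MOLT4, a widely used human cell line of T-ALL (acute lymphoblastic leukemia of the T lineage), grown in serum-containing RPMI. Cells were exposed for 6 h to 250 nM SNS-032, to 250 nM THAL-SNS-032, to 250 nM NVP-2 or to 0.1% DMSO, the vehicle control, with 3 libraries in each of the 4 groups. SNS-032 blocks more than 1 cyclin-dependent kinase, CDK9 included, the kinase that releases paused RNA polymerase II. THAL-SNS-032 is SNS-032 joined to a thalidomide-type ligand of the ubiquitin ligase receptor cereblon, and NVP-2 inhibits CDK9. All groups share 1 line, 1 exposure time and, for the compounds, 1 dose.

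NF-kB proteins act as dimers. In resting cells IkB proteins hold the dimers in the cytoplasm, and signals from antigen, cytokine and Toll-like receptors activate the IkB kinase, which marks IkB for degradation and frees the dimers to enter the nucleus. NF-kB then induces transcription of NFKBIA, NFKBIE and TNFAIP3, whose products shut the response off again, and RELA is known to bring CDK9 to such genes. In T-ALL the pathway is known to be active downstream of NOTCH1.

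The promoters of NFKBIA and TNFAIP3 are shown because these inhibitor genes had the largest differences between SNS-032 and the other compounds, and the sites in NFKB1, NFKB2, REL and NFKBIB because the same motif occurs there. The sequences come from RefSeq promoter windows on GRCh38.p14, running from 250 bases before to 50 bases after a transcription start. Of the 9 genes, 7 matched this table, with 12 windows, and RELB and NFKBIE had no entry. Capitals mark matches to the kB consensus, a motif of 10 bases that was searched on both strands, with overlapping matches joined. NFKB2 had 4 matches and NFKBIB 2, of which a pair for NFKB2 and 1 for NFKBIB are printed. NFKB2 has 3 windows, and the most upstream of them held no match. The upstream and downstream starts named for NFKB2 below are those of its other windows. The other NFKBIB match lay 39 to 48 bases after the start. The first pair gives the 250 bases before the start of NFKBIA and of TNFAIP3, and the lines after it give single sites with their flanks.
NFKBIA promoter, chr14:35404750-35404999, minus strand: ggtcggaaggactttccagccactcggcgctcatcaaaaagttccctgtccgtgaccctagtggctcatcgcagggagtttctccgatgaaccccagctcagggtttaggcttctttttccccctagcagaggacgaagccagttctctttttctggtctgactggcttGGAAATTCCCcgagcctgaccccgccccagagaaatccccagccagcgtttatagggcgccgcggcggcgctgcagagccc
TNFAIP3 promoter, chr6:137867009-137867258, plus strand: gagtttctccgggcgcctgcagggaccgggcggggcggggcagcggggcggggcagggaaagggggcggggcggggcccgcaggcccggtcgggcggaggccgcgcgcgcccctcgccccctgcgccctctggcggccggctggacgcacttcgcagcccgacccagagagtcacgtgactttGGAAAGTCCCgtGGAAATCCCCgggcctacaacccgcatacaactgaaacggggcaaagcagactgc
NFKB1, chr4:102501302-102501327, plus strand: acgtcagtGGGAATTTCCagccagga
NFKB2, upstream start, chr10:102394463-102394489, plus strand: aacgtcatGGGAATTCCCCcctccggg
NFKB2, downstream start, chr10:102395676-102395701, plus strand: gtattttcGGGACTTTCCtaagctgc
REL, chr2:60881519-60881545, plus strand: tcagccgcGGGAAATTCCCctcccgcc
NFKBIB, chr19:38899933-38899959, plus strand: gcgtggtgGGGAATTTCCCgcagggcg
In NFKBIA the match lay 81 to 72 bases before the start, and in TNFAIP3 a pair of matches lay 67 to 58 and 55 to 46 bases before it. At least 1 match was present in 7 of the 12 windows, from 6 of the 7 genes, and RELA had no match in its windows. Of all 35116 promoter windows, 11.3% held a match, and over the 11819 windows of tested genes 13.0%. A match describes letters in the window and not bound factor.

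Values are FPKM, fragment numbers scaled to transcript length and library size, on the scale the authors deposited. The table holds no counts, so read depth is unknown, and whether replicate libraries derive from different cultures is not given in the labels, so p-values cover no more than library-to-library spread. The ERCC spike-ins, synthetic RNAs put in when cells were lysed, had similar levels in all libraries, with medians from -0.02 to 0.05 log2 units around the DMSO mean. Whether the authors scaled the libraries to the spike-ins is not given in the sources used here, and with such scaling equal spike-in levels would follow by construction. On that scale the median tested gene differed from DMSO by -1.92 log2 units after SNS-032, by -1.90 after THAL-SNS-032 and by -2.54 after NVP-2, and fewer cells and less RNA per cell cannot be told apart in such bulk samples. SNS-032 replicate 1 stood apart from the other SNS-032 libraries, with a library median of -2.61 against -1.87 and -2.03. All 10 T-lineage markers exceeded 1 FPKM in DMSO, with summed levels of 731 to 1222 FPKM after SNS-032, 1296 to 1442 after THAL-SNS-032, 619 to 756 after NVP-2 and 3623 to 4577 in DMSO. Among 5 B-cell markers MS4A1 and PAX5 were at the table's floor of about 0.1 FPKM, while CD79A and BLK averaged 9.07 and 48.0 FPKM in DMSO. Myeloid markers summed to 1.98 to 3.70 FPKM after SNS-032, 4.29 to 5.45 after THAL-SNS-032, 0.626 to 0.714 after NVP-2 and 0.948 to 1.10 in DMSO, with CSF1R and ITGAM near the floor throughout, and their part in the results was not tested. Erythroid, stromal and epithelial marker sums stayed at or below 2.63 FPKM.

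The test covered the 11381 genes that averaged at least 1 FPKM across all 12 libraries, which took in 7 of the 9 NF-kB genes. REL and RELB did not reach this mean. Differences between groups are differences in mean log2(FPKM + 1), a scale that understates changes of genes near the floor. A gene was called when the Benjamini-Hochberg adjusted p of limma's moderated test, over all tested genes, was under 0.05.

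In DMSO-treated MOLT4 cells RELA and NFKBIB were the most abundant of the 9 transcripts, at 58.0 ± 4.13 and 57.4 ± 6.73 FPKM (SD, n = 3). NFKBIA followed at 42.3 ± 4.35 FPKM and TNFAIP3 at 15.2 ± 1.00 FPKM. NFKB2 and NFKBIE averaged 9.67 ± 0.860 and 8.34 ± 0.909 FPKM, NFKB1 4.29 ± 0.796, REL 2.07 ± 0.258 and RELB 1.52 ± 0.256. The library ranges of RELA and NFKBIB overlapped, as did those of NFKB2 and NFKBIE. The other neighbours in this order did not overlap, though the lowest REL library, at 1.79 FPKM, lay close to the highest RELB library, at 1.77 FPKM.

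**Figure D1:**
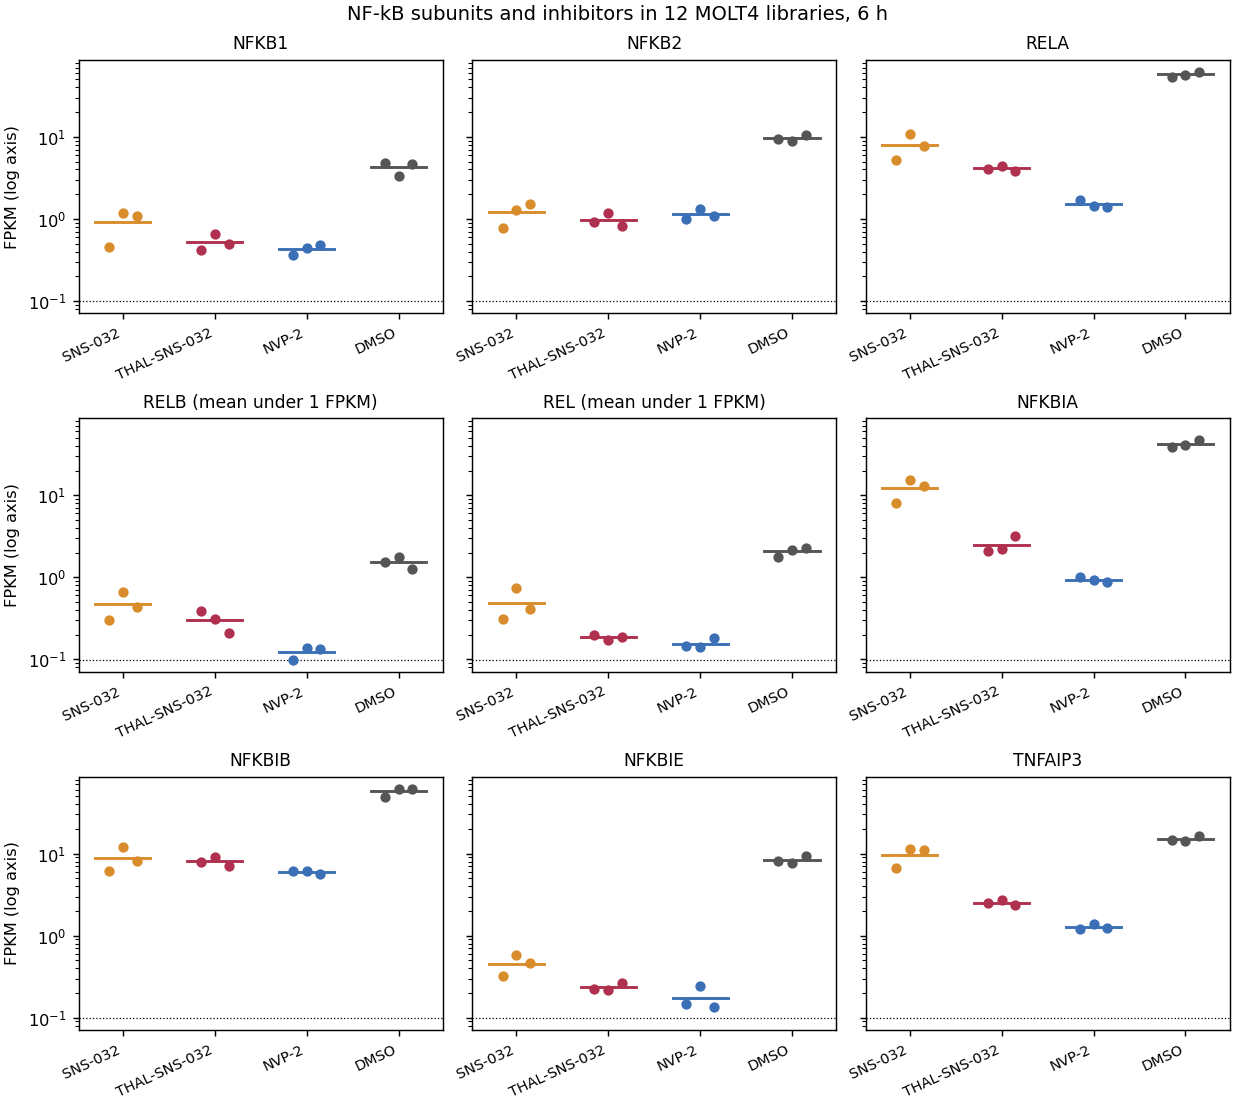
FPKM on a log axis of the 9 NF-kB genes in each of the 12 libraries, by group, with 3 points and a line at the mean per group and a dotted line at the mean floor of the table. Every compound-treated library lies below every DMSO library for each gene, where 94.6% to 97.1% of all tested genes were called lower with a compound. For NFKBIA and TNFAIP3 the 3 compounds form separate levels, SNS-032 highest and NVP-2 lowest.

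All 7 tested genes fell with each compound relative to DMSO on the deposited scale, at a background of 94.6% of all tested genes called lower after SNS-032, 94.8% after THAL-SNS-032 and 97.1% after NVP-2. The shares of tested genes called higher were 1.54%, 1.37% and 0.448%. A count of 7 of 7 is therefore near the background, and the genes differed mainly in size. The filter mean includes DMSO, and NFKB1 and NFKBIE averaged under 1 FPKM with each compound. Both were tested through their DMSO level alone, so a fall was partly built in. How many of all tested genes had groups without overlap was not counted, so such separation is given below as description only. When each library was instead centred on its own median, the number called lower was 3 after SNS-032, 4 after THAL-SNS-032 and 2 after NVP-2, and 3, 1 and 3 genes were called higher. The centred background was 31.1%, 29.2% and 28.1% of all tested genes called lower and 52.6%, 57.2% and 59.7% called higher. Centring left the median gene 0.25, 0.36 and 0.42 log2 units above DMSO.

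RELA, which encodes the subunit with the main activation domain of the canonical dimer, fell with all 3 compounds and kept its direction on both scales. It had 5.22, 10.95 and 7.76 FPKM after SNS-032, 4.10, 4.40 and 3.85 FPKM after THAL-SNS-032, 1.72, 1.45 and 1.41 FPKM after NVP-2, and 54.3, 57.2 and 62.4 FPKM in DMSO. The 4 groups did not overlap. Relative to the mean in DMSO, RELA stood at 13.8% after SNS-032, 7.10% after THAL-SNS-032 and 2.63% after NVP-2. The differences from DMSO were -2.76, -3.53 and -4.55 (SE 0.19 each) in that order of compounds, against medians of -1.92, -1.90 and -2.54 for all tested genes. Only 6.02% of tested genes had a lower difference after THAL-SNS-032 and 4.02% after NVP-2, while 16.4% did after SNS-032. On centred libraries RELA remained called lower, by -0.59, -1.27 and -1.59.

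NFKB1 and NFKB2 encode the precursors of the DNA-binding subunits p50 and p52. NFKB1 had 0.455, 1.19 and 1.08 FPKM after SNS-032, 0.414, 0.646 and 0.501 FPKM after THAL-SNS-032, 0.359, 0.443 and 0.486 FPKM after NVP-2, and 4.78, 3.37 and 4.73 FPKM in DMSO. The compound groups overlapped each other at these low levels and none reached DMSO. The differences of NFKB1 from DMSO were -1.48, -1.79 and -1.88 after SNS-032, after THAL-SNS-032 and after NVP-2 (SE 0.16), smaller than those of the median gene. That order depended on the pseudocount, since at 0.1 in place of 1 the differences of NFKB1 were -2.20, -2.82 and -3.04, against medians of -2.19, -2.14 and -2.97. The means of NFKB1 amounted to 21.1%, 12.1% and 10.0% of the DMSO mean. On centred libraries its direction turned, to 0.69, 0.47 and 1.08. NFKB2 had 0.779, 1.29 and 1.53 FPKM after SNS-032, 0.904, 1.16 and 0.809 FPKM after THAL-SNS-032, 0.994, 1.33 and 1.10 FPKM after NVP-2, and 9.49, 8.90 and 10.6 FPKM in DMSO. Its compound means lay between 9.92% and 12.4% of the DMSO mean, with overlapping libraries. The differences of NFKB2 were -2.29, -2.45 and -2.32 (SE 0.15), and on centred libraries the difference after NVP-2 turned to 0.64.

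REL encodes c-Rel, a subunit prominent in lymphocytes, and RELB the partner of p52 in the non-canonical pathway. REL had 0.312, 0.737 and 0.406 FPKM after SNS-032, 0.1997, 0.173 and 0.187 FPKM after THAL-SNS-032, 0.144, 0.141 and 0.182 FPKM after NVP-2, and 1.79, 2.15 and 2.29 FPKM in DMSO. RELB had 0.301, 0.657 and 0.440 FPKM after SNS-032, 0.384, 0.310 and 0.209 FPKM after THAL-SNS-032, 0.0976, 0.138 and 0.132 FPKM after NVP-2, and 1.54, 1.77 and 1.25 FPKM in DMSO. No compound group overlapped DMSO for either gene, and after NVP-2 both came close to the floor. The exact two-sided permutation test gave p = 0.1 in each of these comparisons with DMSO, the smallest p that 3 against 3 libraries allow. In a limma fit without the filter on low values the differences of REL, -1.06, -1.37 and -1.41 after SNS-032, after THAL-SNS-032 and after NVP-2, had Benjamini-Hochberg adjusted p of 2.71e-06, 4.28e-07 and 1.99e-07. In the same limma fit those of RELB, -0.78, -0.95 and -1.16, had Benjamini-Hochberg adjusted p of 2.84e-05, 6.45e-06 and 9.19e-07. That fit called most of the 23619 genes lower with each compound, 19550 of them after NVP-2. Its median gene differed from DMSO by -0.53, -0.52 and -0.78 in the same order of compounds. RELB in NVP-2 replicate 1, at 0.0976 FPKM, lay under the floor of that library, 0.0996 FPKM. A call after NVP-2 in that fit therefore adds little to the separation of the groups.

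Among the inhibitors, NFKBIA and TNFAIP3 separated the compounds most. NFKBIA encodes IkB-alpha, the IkB that NF-kB itself reinduces fastest. It had 8.01, 15.3 and 13.0 FPKM after SNS-032, 2.09, 2.22 and 3.16 FPKM after THAL-SNS-032, 0.996, 0.936 and 0.880 FPKM after NVP-2, and 38.8, 40.8 and 47.2 FPKM in DMSO. The 4 groups were fully apart, with 28.6% of the DMSO level left after SNS-032, 5.89% after THAL-SNS-032 and 2.22% after NVP-2. The differences from DMSO were -1.76, -3.64 and -4.48 (SE 0.20), so that NFKBIA lay near the median gene after SNS-032 and far below it with the other compounds, where 5.01% and 4.51% of tested genes had a lower difference. On centred libraries NFKBIA was called higher after SNS-032, by 0.41, and lower after THAL-SNS-032 and NVP-2, by -1.38 and -1.52.

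TNFAIP3 was the NF-kB gene closest to its DMSO level after SNS-032. It had 6.74, 11.3 and 10.9 FPKM after SNS-032, 2.47, 2.72 and 2.36 FPKM after THAL-SNS-032, 1.19, 1.39 and 1.24 FPKM after NVP-2, and 14.8, 14.4 and 16.3 FPKM in DMSO. None of the 4 groups overlapped, and the means amounted to 63.7%, 16.6% and 8.41% of the DMSO mean. The difference after SNS-032 was -0.63 (SE 0.17, limma with Benjamini-Hochberg adjusted p = 0.0021), and 93.3% of tested genes had a lower one. Without SNS-032 replicate 1 it was -0.41 and still called. After THAL-SNS-032 and NVP-2 TNFAIP3 differed by -2.20 and -2.83, close to the median gene. On centred libraries its direction turned with all 3 compounds, to 1.54 after SNS-032, 0.057 after THAL-SNS-032 and 0.13 after NVP-2. The THAL-SNS-032 value was not called. The centred median gene lay at 0.25, 0.36 and 0.42, so TNFAIP3 was above it after SNS-032 and below it with the other compounds.

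NFKBIB and NFKBIE, which encode IkB-beta and IkB-epsilon, fell with all 3 compounds. NFKBIB had 6.12, 12.1 and 8.11 FPKM after SNS-032, 8.01, 9.06 and 7.02 FPKM after THAL-SNS-032, 6.22, 6.20 and 5.61 FPKM after NVP-2, and 49.6, 61.0 and 61.5 FPKM in DMSO. The compound means amounted to 15.3%, 14.0% and 10.5% of the DMSO mean, with differences of -2.62, -2.69 and -3.05 (SE 0.20). On centred libraries the differences were -0.45, -0.43 and -0.09, the last of them not called. NFKBIE had 0.327, 0.576 and 0.467 FPKM after SNS-032, 0.221, 0.220 and 0.264 FPKM after THAL-SNS-032, 0.145, 0.244 and 0.136 FPKM after NVP-2, and 8.03, 7.62 and 9.36 FPKM in DMSO. By mean share of DMSO it was the lowest of the 9 genes with each compound, at 5.48%, 2.82% and 2.10%. After NVP-2 its libraries, at 1.74%, 2.93% and 1.63%, overlapped those of NFKBIA and RELA, so that rank is not resolved. The differences of NFKBIE were -2.68, -2.91 and -2.99 (SE 0.11). On the log2(FPKM + 1) scale such values near the floor compress a difference.

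**Figure D2:**
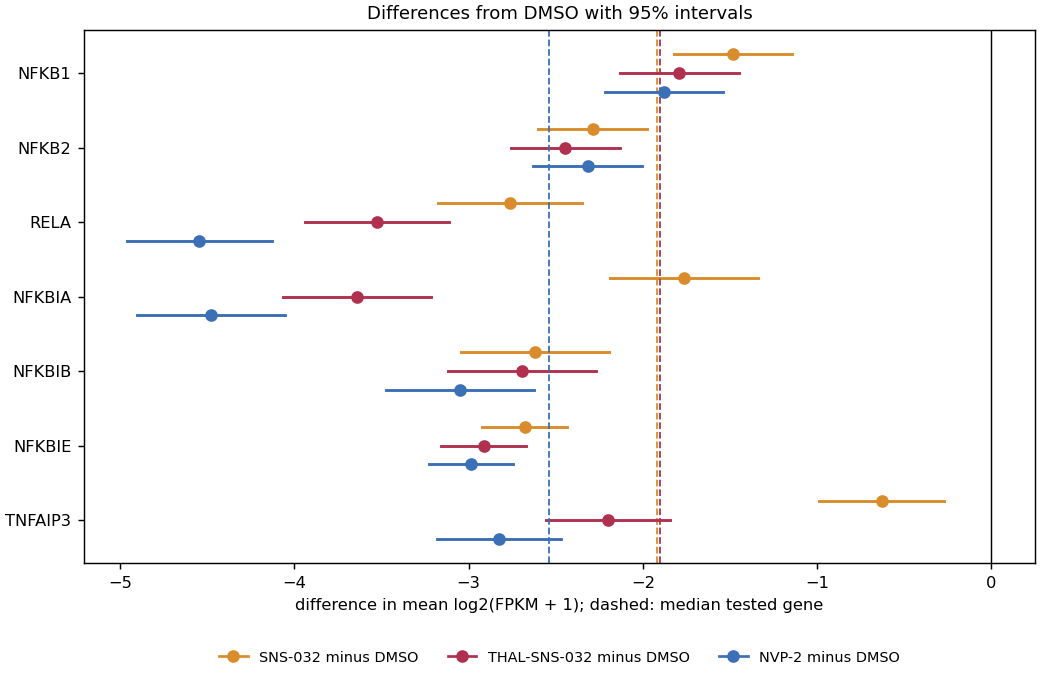
Differences in mean log2(FPKM + 1) between each compound and DMSO for the 7 tested NF-kB genes, with 95% intervals as bars and filled points for called differences. Dashed lines mark the median of all tested genes for each compound, at -1.92 for SNS-032, at -1.90 for THAL-SNS-032 and at -2.54 for NVP-2, and TNFAIP3 after SNS-032 lies to the right of them at -0.63.

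Between THAL-SNS-032 and SNS-032, which differ by the linked cereblon ligand, RELA, NFKBIA and TNFAIP3 were lower after THAL-SNS-032. That is 3 of 7 genes, at a background of 16.7% of tested genes called lower and 13.4% called higher, and no NF-kB gene was called higher. NFKBIA averaged 2.49 ± 0.584 FPKM after THAL-SNS-032 and 12.1 ± 3.71 FPKM after SNS-032, a difference of -1.88 (95% interval -2.30 to -1.45, limma with Benjamini-Hochberg adjusted p = 6.71e-06). TNFAIP3 averaged 2.52 ± 0.188 FPKM after THAL-SNS-032 and 9.65 ± 2.53 FPKM after SNS-032, a difference of -1.57 (-1.93 to -1.21, limma with Benjamini-Hochberg adjusted p = 6.94e-06). The median tested gene lay the other way, at 0.14, and 2.64% and 3.98% of tested genes had a lower difference than NFKBIA and TNFAIP3. RELA averaged 4.12 ± 0.275 FPKM after THAL-SNS-032 and 7.98 ± 2.87 FPKM after SNS-032, a difference of -0.76 (-1.18 to -0.35). Its limma call (Benjamini-Hochberg adjusted p = 0.00858) was lost when only the 6 libraries of the pair were fitted (adjusted p = 0.0581, with a range of 2.49e-05 to 0.0581 over all alternatives). These 3 genes remained called lower on centred libraries, by -1.79, -1.48 and -0.68 for NFKBIA, TNFAIP3 and RELA. There 23.1% of tested genes were called lower and 51.2% higher, and the median gene lay at 0.22.

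The remaining 4 genes did not pass between THAL-SNS-032 and SNS-032. The differences were -0.31 for NFKB1 (95% interval -0.65 to 0.03), -0.16 for NFKB2 (-0.47 to 0.15), -0.07 for NFKBIB (-0.50 to 0.35) and -0.23 for NFKBIE (-0.48 to 0.01). Each of these intervals lay within 2-fold either way on the log2(FPKM + 1) scale, which compresses differences of NFKB1 and NFKBIE at their low levels. The ratio of mean FPKM was 0.573 for NFKB1, 0.798 for NFKB2, 0.916 for NFKBIB and 0.515 for NFKBIE. The NFKBIE groups did not overlap, and a 2-fold change in FPKM is not excluded for NFKB1 or NFKBIE. SNS-032 replicate 1 had the lowest level of each of the 9 genes among the SNS-032 libraries, and without it 6 genes were called lower after THAL-SNS-032, NFKB1 (-0.49), NFKB2 (-0.30) and NFKBIE (-0.30) in addition. Over all tested genes the lower calls then rose from 1900 to 3424, and the median difference moved from 0.14 to -0.05. NFKBIB was at -0.28 without SNS-032 replicate 1, and at 0.16 without SNS-032 replicate 2.

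Between THAL-SNS-032 and NVP-2 the same 3 genes, RELA, NFKBIA and TNFAIP3, were called, all higher after THAL-SNS-032, at a background of 70.0% of tested genes called higher and 0.993% called lower. RELA averaged 4.12 ± 0.275 FPKM after THAL-SNS-032 and 1.52 ± 0.168 FPKM after NVP-2, a difference of 1.02 (95% interval 0.61 to 1.43). NFKBIA differed by 0.84 (0.41 to 1.26) and TNFAIP3 by 0.63 (0.27 to 0.98), around the median gene at 0.64. On centred libraries 38.0% of tested genes were called lower and 29.4% higher, with the median gene at -0.065. The RELA difference was then 0.32 and still called, that of NFKBIA was 0.13 and not called. That of TNFAIP3 turned to -0.076, close to the median gene. NFKB1, NFKB2, NFKBIB and NFKBIE did not pass, with differences of 0.09 (-0.25 to 0.43), -0.13 (-0.44 to 0.18), 0.36 (-0.06 to 0.79) and 0.07 (-0.17 to 0.32). The NFKBIB groups did not overlap, and its difference of 0.36 was called without SNS-032 replicate 1 or replicate 2, whose spread enters the pooled error.

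Between SNS-032 and NVP-2, 5 of the 7 genes were higher after SNS-032, at a background of 52.6% of tested genes called higher and 0.782% called lower. NFKBIA averaged 12.1 ± 3.71 FPKM after SNS-032 and 0.937 ± 0.0578 FPKM after NVP-2, a difference of 2.71 (95% interval 2.29 to 3.14) that exceeded that of 97.5% of tested genes. TNFAIP3 averaged 9.65 ± 2.53 FPKM after SNS-032 and 1.27 ± 0.101 FPKM after NVP-2, a difference of 2.20 (1.84 to 2.55). RELA differed by 1.78 (1.37 to 2.20). The median tested gene differed by 0.48. All 3 stayed called on centred libraries, at 1.93, 1.41 and 0.99, where 58.9% of tested genes were called lower and 24.8% higher. NFKB1 (0.39, 0.05 to 0.73) and NFKBIE (0.31, 0.06 to 0.55) were called by small margins, and the NFKB1 groups overlapped. The NFKB1 call held under 8 of 20 alternatives, with Benjamini-Hochberg adjusted p of 0.00135 to 0.193 from limma. It was lost with no filter, without trend and at a pseudocount of 5, and when any 1 THAL-SNS-032 or NVP-2 library, SNS-032 replicate 2 or SNS-032 replicate 3 was left out. The NFKBIE call held under 13 of 20. On centred libraries both turned, to -0.39 and -0.48, where the median gene lay at -0.31. The count was 3 without SNS-032 replicate 2, SNS-032 replicate 3, NVP-2 replicate 1 or NVP-2 replicate 3. NFKB2 (0.03, -0.28 to 0.34) and NFKBIB (0.43, 0.01 to 0.86) did not pass, and without SNS-032 replicate 1 NFKBIB was called at 0.64.

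**Figure D3:**
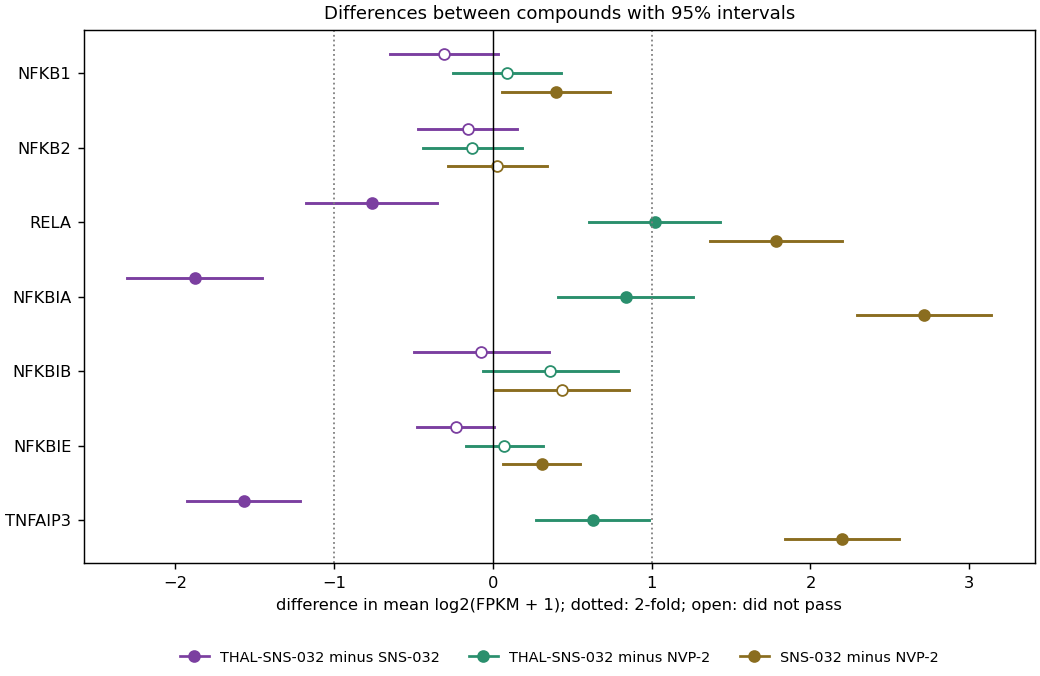
Differences in mean log2(FPKM + 1) between pairs of compounds for the 7 tested NF-kB genes, with 95% intervals as bars, filled points for called and open points for other differences, and dotted lines at 2-fold. NFKBIA and TNFAIP3 lie farthest from 0, at -1.88 and -1.57 for THAL-SNS-032 minus SNS-032 and at 2.71 and 2.20 for SNS-032 minus NVP-2, while NFKB2 lies within 0.16 of 0 in every pair.

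Ratios of 2 genes within 1 library do not depend on how libraries were scaled to each other. NFKBIB was used as the denominator, a choice made after the values were seen. The NFKBIA to NFKBIB ratio was 1.27 to 1.61 after SNS-032, 0.245 to 0.451 after THAL-SNS-032, 0.151 to 0.160 after NVP-2 and 0.669 to 0.783 in DMSO. With this denominator it was above DMSO in all 3 SNS-032 libraries and below DMSO in all 6 libraries of the other compounds. With RELA as the denominator the NFKBIA ratio was 1.39 to 1.68 after SNS-032, 0.505 to 0.822 after THAL-SNS-032, 0.580 to 0.647 after NVP-2 and 0.713 to 0.756 in DMSO, so that 1 THAL-SNS-032 library, replicate 3, lay above every DMSO library. The TNFAIP3 to NFKBIB ratio was 0.937 to 1.35 after SNS-032, 0.301 to 0.336 after THAL-SNS-032, 0.192 to 0.224 after NVP-2 and 0.236 to 0.298 in DMSO. Here SNS-032 and THAL-SNS-032 lay above DMSO, the second by a narrow margin, and NVP-2 lay below it. The RELA to NFKBIB ratio was 0.854 to 0.957 after SNS-032, 0.485 to 0.548 after THAL-SNS-032, 0.233 to 0.276 after NVP-2 and 0.938 to 1.09 in DMSO. SNS-032 and DMSO overlapped for this ratio, and THAL-SNS-032 and NVP-2 lay below both. The TNFAIP3 to NFKBIA ratio was 0.740 to 0.841 after SNS-032, 0.746 to 1.23 after THAL-SNS-032, 1.20 to 1.48 after NVP-2 and 0.345 to 0.380 in DMSO, and it was above DMSO in every compound-treated library. A ratio shows unequal change of its genes and not which of them changed.

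**Figure D4:**
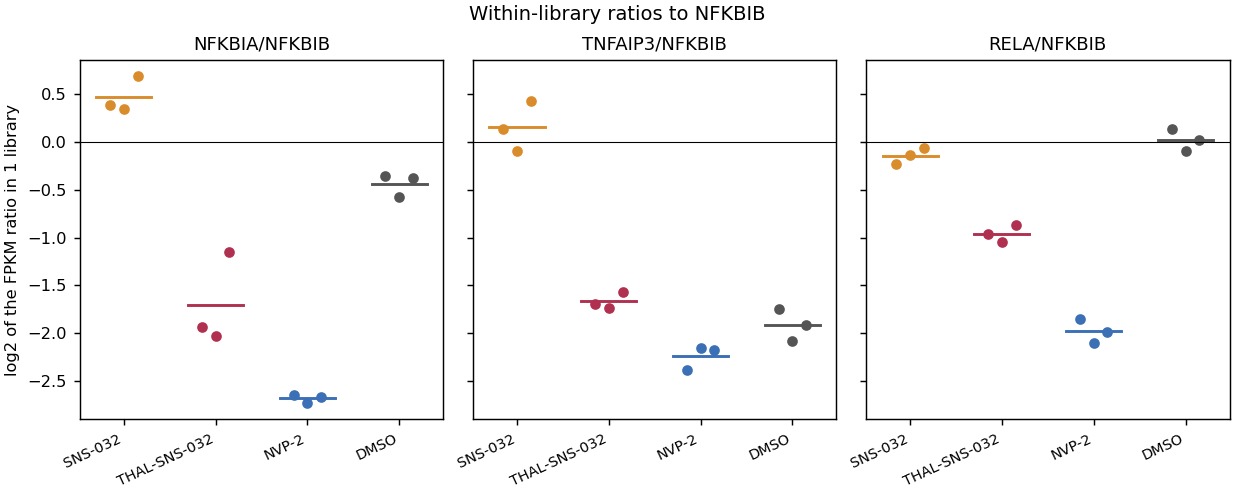
Log2 ratios of NFKBIA, TNFAIP3 and RELA to NFKBIB in each of the 12 libraries, by group, with 3 points and a line at the mean per group. The mean NFKBIA ratio is 0.47 after SNS-032, -1.71 after THAL-SNS-032, -2.68 after NVP-2 and -0.44 in DMSO.

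For each tested NF-kB gene the most similar genes were taken as those at the smallest Euclidean distance over the 3 differences from DMSO. TNFAIP3 was nearest to ZNF329 (distance 0.19; differences of -0.79, -2.29 and -2.89 after SNS-032, after THAL-SNS-032 and after NVP-2) and MIER1 (0.20). NFKBIA was nearest to TRIM26 (0.22) and DCLRE1B (0.26), and RELA to ATMIN (0.13) and CCDC51 (0.15). These distances exceeded those of the other genes, whose closest neighbours were TTLL11 for NFKB1 (0.04), AS3MT for NFKB2 (0.03), TUBGCP4 for NFKBIB (0.03) and FAM105B for NFKBIE (0.03). FAM105B is an older symbol of OTULIN, a deubiquitinase of linear chains.

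The wider pathway was read from a list of 49 genes that carry signals to NF-kB or restrain it, of which 48 were in the table and 43 were tested. After SNS-032 42 of the 43 fell, after THAL-SNS-032 and NVP-2 all 43, near the background of 94.6%, 94.8% and 97.1% of all tested genes called lower. MALT1, TBK1, NKIRAS1 and NFKBID averaged under 1 FPKM with each compound. These genes were tested through their DMSO level alone, so a fall was partly built in. The median differences were -2.03, -2.16 and -2.65, close to the medians of all tested genes. On centred libraries 16, 15 and 8 of the 43 were called lower and 20, 21 and 25 higher, against 31.1%, 29.2% and 28.1% lower and 52.6%, 57.2% and 59.7% higher over all tested genes. The exception was TAB2, an adaptor of the kinase TAK1, which averaged 43.6 ± 13.0 FPKM after SNS-032, 13.0 ± 1.08 FPKM after THAL-SNS-032, 5.66 ± 0.460 FPKM after NVP-2 and 39.5 ± 3.30 FPKM in DMSO. Its difference from DMSO after SNS-032 was 0.10 (SE 0.20), and without SNS-032 replicate 1 the list had 1 gene called higher. The signalling gene RBCK1, a subunit of the linear ubiquitin ligase, was the most abundant of the list in DMSO, at 42.6 ± 11.9 FPKM after SNS-032, 55.0 ± 5.35 FPKM after THAL-SNS-032, 35.8 ± 3.18 FPKM after NVP-2 and 123.5 ± 14.6 FPKM in DMSO. MYD88, the Toll-like receptor adaptor, and RIPK1, the kinase of the TNF receptor complex, differed from DMSO by -3.09 and -3.13 after SNS-032, by -3.31 and -3.38 after THAL-SNS-032 and by -3.47 and -3.58 after NVP-2.

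Between THAL-SNS-032 and SNS-032, 9 of the 43 signalling genes were lower and 8 higher after THAL-SNS-032, with a median of 0.02, near the background of 16.7% lower and 13.4% higher. The lower ones included BCL10, the adaptor that joins antigen receptor signals to the IkB kinase, with 1.02 ± 0.218 FPKM after THAL-SNS-032 and 6.60 ± 1.89 FPKM after SNS-032 (difference -1.89, SE 0.17). TAB2 differed by -1.63 and FBXW11, a ubiquitin ligase receptor for phosphorylated IkB, by -1.20. PRKCQ, the protein kinase C of the T-cell receptor pathway, differed by -1.13, with 13.9 ± 1.27 FPKM after THAL-SNS-032 and 32.4 ± 8.85 FPKM after SNS-032. Genes higher after THAL-SNS-032 included IKBKB, the catalytic IkB kinase beta, by 0.79, TNIP1, an A20-binding inhibitor, by 0.75, and NKIRAS2, a Ras-like IkB interactor, by 0.72. The lower count was 18 without SNS-032 replicate 1, and the higher count was 13 without SNS-032 replicate 2, 3 without THAL-SNS-032 replicate 2 and 5 without THAL-SNS-032 replicate 3. Over all tested genes the lower count rose from 1900 to 3424 without SNS-032 replicate 1. The higher count over all tested genes, 1525 with every library, was 2765, 614 and 907 without the other libraries named, in the same order. On centred libraries 19 signalling genes were called higher, against 51.2% of all tested genes. Against NVP-2, 25 were higher after THAL-SNS-032 and 22 after SNS-032 and none was called lower, at or below the background of 70.0% and 52.6% called higher. With centring 22 and 27 were called lower, against 38.0% and 58.9% of all tested genes. Without SNS-032 replicate 1 the count higher after SNS-032 was 34, and that over all tested genes rose from 5990 to 9292.

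Known NF-kB target genes form the last list, 57 genes of which 56 were in the table and 24 were tested. The 32 untested genes had a mean under 1 FPKM, and 22 of them averaged under 0.2 FPKM in DMSO. All 24 tested targets fell with each compound, near the background of 94.6%, 94.8% and 97.1% called lower. A mean taken over all libraries keeps genes that are high in DMSO alone, such as TNFSF10, which encodes the death ligand TRAIL and is named after its values were seen, at 0.212 FPKM after SNS-032, 0.150 after THAL-SNS-032, 0.145 after NVP-2 and 3.95 in DMSO. The list medians were -2.02, -2.18 and -2.76, while on centred libraries 6, 8 and 10 were called lower and 11, 11 and 12 higher. The centred background was 31.1%, 29.2% and 28.1% called lower and 52.6%, 57.2% and 59.7% called higher. CD83, a surface activation marker, averaged 0.635 ± 0.279 FPKM after SNS-032, 0.252 ± 0.0775 FPKM after THAL-SNS-032, 0.214 ± 0.0413 FPKM after NVP-2 and 20.5 ± 2.04 FPKM in DMSO. CD69, an early T-cell activation marker, averaged 5.47 ± 2.12 FPKM after SNS-032, 0.878 ± 0.202 FPKM after THAL-SNS-032, 0.184 ± 0.0925 FPKM after NVP-2 and 26.3 ± 0.996 FPKM in DMSO, and so stood at 3 levels with the 3 compounds. B2M, the light chain of MHC class I, differed from DMSO by -0.98, -0.74 and -1.50 after SNS-032, after THAL-SNS-032 and after NVP-2.

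Between THAL-SNS-032 and SNS-032, 6 of the 24 targets were lower and 2 higher after THAL-SNS-032, at a background of 16.7% lower and 13.4% higher. CD69 differed by -1.74 (SE 0.19), the death receptor gene FAS by -1.65 (SE 0.16) and JUNB, an AP-1 subunit, by -1.26 (SE 0.18). The pair of higher targets was STAT5A, by 0.69, and LTB, which encodes lymphotoxin beta, by 0.65. The lower count was 10 without SNS-032 replicate 1 and 3 without THAL-SNS-032 replicate 1, and the higher count was 4 without SNS-032 replicate 2, 0 without THAL-SNS-032 replicate 2 and 1 without THAL-SNS-032 replicate 3. Over all tested genes the lower count rose from 1900 to 3424 without SNS-032 replicate 1. The higher count over all tested genes rose from 1525 to 2765 without SNS-032 replicate 2. Against NVP-2, 13 of the 24 targets were higher after THAL-SNS-032 and 13 after SNS-032, at a background of 70.0% and 52.6% of tested genes called higher. Among them were IRF1, an interferon regulatory factor, by 2.07 and 2.85, and TNFAIP8, an apoptosis regulator, by 1.90 and 2.50. The SNS-032 count was 21 without SNS-032 replicate 1 and 8 without SNS-032 replicate 2 or replicate 3. Over all tested genes that count rose from 5990 to 9292 without SNS-032 replicate 1. On centred libraries 10 targets were called higher after THAL-SNS-032 than after SNS-032, and 12 and 16 were called lower after THAL-SNS-032 and SNS-032 than after NVP-2. The matching shares over all tested genes were 51.2% higher, and 38.0% and 58.9% lower.

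Annotated genes overlap NFKB1 (among them NFKB1-AS1), RELA (RELA-DT), REL (RNU4-51P) and TNFAIP3 (WAKMAR2) on GRCh38.p14. The libraries were stranded, but whether counting used strand is not given in the sources used here, so reads of such partners may not be separated from those of these 4 genes.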

How the data were processed

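Per the labels, poly(A) RNA from MOLT4 cells was made into stranded libraries, with ERCC spike-ins added at lysis. Per the submitters' processing notes, HISAT, Cufflinks 2.0.0 and hg19 were used; the annotation is not given in the sources used here. The authors deposited FPKM on a scale set across libraries. The table has 23713 entries. Leaving out its 92 ERCC entries and the lower row of 2 duplicated symbols gave 23619 genes. No value was 0: 4199 genes share 1 floor value per library. Depth is unknown, so no counting interval is given.

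The 11381 genes averaging at least 1 FPKM were tested as log2(FPKM + 1), without rescaling, in 1 limma 3.58.1 fit with trend (R 4.3.3) over the 4 groups with 8 residual degrees of freedom and no replicate block. It gave 6 two-sided comparisons with Benjamini-Hochberg adjustment over all tested genes and a threshold of 0.05. The test was checked on simulated data. REL and RELB were compared by exact permutation.

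Alternatives were pseudocounts of 0.1 and 5, no filter or a mean of 5 FPKM, libraries centred on their medians, equal ERCC medians, limma without trend, fits of just the 6 libraries compared, the replicate number as a block, and each library left out, with the pooled spread then used for a group of 2. Members and lists were chosen with earlier results of these data known. Named list genes were the 3 most abundant in DMSO and up to 3 called genes per direction and comparison. Promoter windows came from RefSeq on GRCh38.p14; no hg19 coordinates were used. Figures were drawn with matplotlib 3.10.9.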

Additional observations from a re-analysis of the deposited data

How the results depend on the processing

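Of 864 values of the 7 tested NF-kB genes under the alternatives, 809 kept their direction and side of the threshold, 24 lost a call, 9 gained one and 22 changed sign. REL and RELB, otherwise compared by exact permutation, gained a call in 8 of 12 comparisons in the fit with no filter. These gains compare unlike tests, since the exact test of 3 against 3 libraries cannot go below p = 0.1 and so could make no call. The cause of the other changes was not tested. Depth is unknown, and no limit on low levels can be set from it beyond the floor.

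On libraries centred on their medians, the NF-kB genes called lower were 3 after SNS-032, 4 after THAL-SNS-032 and 2 after NVP-2 against DMSO, and 3, 1 and 3 were called higher. The signalling list had 16, 15 and 8 lower and 20, 21 and 25 higher, the target list 6, 8 and 10 lower and 11, 11 and 12 higher, and all tested genes 3537, 3319 and 3198 lower and 5989, 6515 and 6789 higher. Between compounds, centring gave 19 signalling genes, 10 targets and 5822 tested genes higher after THAL-SNS-032 than after SNS-032. Against NVP-2 it gave 4 NF-kB genes lower and 1 higher, 22 signalling genes lower and 13 higher, 12 targets lower and 6 higher, and 4327 tested genes lower and 3343 higher after THAL-SNS-032. After SNS-032 against NVP-2 it gave 4 lower and 3 higher, 27 and 10, 16 and 7, and 6706 and 2819, in the same order of lists. Centring changed the sign of NFKB1 against DMSO (0.69, 0.47 and 1.08) and against NVP-2 after THAL-SNS-032 (-0.62) and SNS-032 (-0.39), and of NFKB2 for NVP-2 against DMSO (0.64) and SNS-032 against NVP-2 (-0.76). It also changed that of NFKBIA for SNS-032 against DMSO (0.41), of NFKBIB for THAL-SNS-032 against SNS-032 (0.012), THAL-SNS-032 against NVP-2 (-0.34) and SNS-032 against NVP-2 (-0.36), and of NFKBIE for THAL-SNS-032 (-0.63) and SNS-032 (-0.48) against NVP-2. TNFAIP3 changed sign against DMSO (1.54, 0.057 and 0.13) and for THAL-SNS-032 against NVP-2 (-0.076). The centred median gene was itself not at 0, with 0.25, 0.36 and 0.42 against DMSO. Between compounds it lay at 0.22 for THAL-SNS-032 against SNS-032, -0.065 for THAL-SNS-032 against NVP-2 and -0.31 for SNS-032 against NVP-2.

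A mean of 5 FPKM or more left 4 NF-kB genes tested and called lower with each compound, and 3 called higher after SNS-032 than after NVP-2. It gave 61, 42 and 21 tested genes higher than DMSO, and 51 and 59 lower after THAL-SNS-032 and SNS-032 than after NVP-2. With no filter on low values 1 signalling gene and 1 target were called higher than DMSO after SNS-032 and after THAL-SNS-032, 4 targets were higher after THAL-SNS-032 than after SNS-032, and 47 of 56 targets were lower after NVP-2 than in DMSO. All genes called were then 478 and 693 higher after SNS-032 and THAL-SNS-032 and 19550 of 23619 lower after NVP-2. The floor was 0.0910 to 0.0996 FPKM in the NVP-2 libraries and 0.102 to 0.104 FPKM in DMSO. Genes at the floor in every library, among them IL6 and IL1B, could thus be called lower without being detected. These NVP-2 counts are therefore not read as a fall of so many genes. A pseudocount of 5 gave 3 NF-kB genes higher after SNS-032 than after NVP-2 and 73 tested genes lower after THAL-SNS-032 than after NVP-2, limma without trend also gave 3 NF-kB genes, and a pseudocount of 0.1 gave 1 signalling gene lower after SNS-032 than after NVP-2. The NFKBIA call between THAL-SNS-032 and NVP-2 was lost at a pseudocount of 5 (0.33). Fits of only the 6 libraries compared gave 2 signalling genes, 0 targets and 507 tested genes higher after THAL-SNS-032 than after SNS-032, and 1 signalling gene, 1 target and 281 tested genes lower after THAL-SNS-032 than after NVP-2.

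Leaving out 1 library at a time gave 3 to 6 NF-kB genes lower after THAL-SNS-032 than after SNS-032, 9 to 18 signalling genes lower and 3 to 13 higher, 3 to 10 targets lower and 0 to 4 higher, and 1479 to 3424 tested genes lower and 614 to 2765 higher. For SNS-032 against NVP-2 it gave 3 to 6 NF-kB genes, 18 to 34 signalling genes, 8 to 21 targets and 4553 to 9292 tested genes higher, with 0 to 1 signalling genes and 56 to 128 tested genes lower. For THAL-SNS-032 against NVP-2 it gave 0 to 1 targets and 74 to 232 tested genes lower, and for SNS-032 against DMSO 0 to 1 signalling genes higher. NFKB2 ranged from -0.080 to 0.17 for SNS-032 against NVP-2 and NFKBIB from -0.28 to 0.16 for THAL-SNS-032 against SNS-032.

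Whether the replicate numbers pair the libraries was not settled. The 18 correlations of same-numbered libraries ran from -0.151 to 0.170, with 1 above 0.1, and 7 of the 12 libraries correlated best with their own number. With the replicate block 2308 tested genes were called higher after THAL-SNS-032 than after SNS-032 instead of 1525. After SNS-032 6 NF-kB genes were called higher than after NVP-2 instead of 5, while that count over all tested genes rose from 5990 to 6694.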

Other observations

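NFKBIZ, which encodes the nuclear IkB-zeta, a coactivator for some NF-kB targets, was under the mean of 1 FPKM and so not tested. It is named because its values stood out once seen. It had 0.959, 1.62 and 1.53 FPKM after SNS-032, 1.30, 1.86 and 1.37 FPKM after THAL-SNS-032, 0.195, 0.238 and 0.228 FPKM after NVP-2, and 0.786, 0.569 and 0.608 FPKM in DMSO. Every SNS-032 and THAL-SNS-032 library lay above every DMSO library, and every NVP-2 library below. In the limma fit without the filter its differences from DMSO were 0.51, 0.60 and -0.44 (SE 0.12). NFKBIZ was picked from these same values, so no p-value is given. NFKBID, which encodes another nuclear IkB, averaged 0.735 ± 0.260 FPKM after SNS-032, 0.648 ± 0.110 FPKM after THAL-SNS-032, 0.683 ± 0.0534 FPKM after NVP-2 and 10.0 ± 2.61 FPKM in DMSO (SD, n = 3). CXCL10, which encodes a chemokine that attracts T cells, was likewise under the mean of 1 FPKM and is named because its values stood out once seen. It had 0.896, 1.43 and 2.01 FPKM after SNS-032, 0.152, 0.171 and 0.163 FPKM after THAL-SNS-032, 0.152, 0.171 and 0.201 FPKM after NVP-2, and 0.149, 0.145 and 0.152 FPKM in DMSO. Every SNS-032 library lay above every library of the other groups, which ran from 0.145 to 0.201 FPKM. In the limma fit without the filter CXCL10 differed from DMSO by 1.06 after SNS-032 (SE 0.13), and by 0.016 and 0.032 after THAL-SNS-032 and after NVP-2. It too was picked from these values, so no p-value is given.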
